A study of Homo sapiens with 9 samples.

Results

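The genes described here are 10 transcription factors of the myeloid lineage: SPI1, CEBPA, CEBPB, CEBPD, CEBPE, CEBPG, RUNX1, IRF8, GFI1 and GATA2. They were taken by name, with no threshold on a measured value, from a table of 26929 genes, and all 10 were found there. Their RNA levels are reported for MV4-11 cells, a long-established line of human acute myeloid leukaemia that carries a KMT2A (MLL) fusion and an internal tandem duplication of the receptor FLT3. Cells had been kept for 24 h with JPX-0700, with JPX-0750 or with DMSO, the solvent used as control, and each of these 3 groups has 3 libraries, 9 in all. The series title calls the compounds dual STAT3/5 degraders, and no dose is stated in the labels, so values of the 2 compounds are set side by side without knowing whether doses matched. Nothing in the labels tells whether replicates came from separate cultures, so p-values measure the spread between these libraries, which may be technical. All groups are 1 cell line in culture, so no wild-type or primary blood cell stands beside them.

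PU.1 (encoded by SPI1), the C/EBP proteins, RUNX1, IRF8, GFI1 and GATA2 act together when blood progenitors commit to the granulocyte and monocyte lineages. PU.1 and C/EBPα open and activate genes of both lineages, IRF8 favours monocytes, GFI1 and C/EBPε favour granulocytes, RUNX1 acts early in progenitors, and GATA2 maintains stem and progenitor cells. STAT3 and STAT5 are signal-activated factors that many cytokine receptors, and mutated FLT3, switch on, and they bind a palindromic element called GAS.

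Values are counts of sequencing reads that the authors divided by 1 factor per library, here called normalised counts. The libraries were made with QuantSeq, a method in which reads start near the 3′ ends of polyadenylated transcripts, so that a transcript gives about the same number of reads whatever its length and levels of different genes can be set in order without division by length. Reads on genes ran from 2701317 to 6305586 in DMSO libraries and from 726043 to 1941860 in treated libraries. In treated libraries 8.15% to 13.5% of reads lay on structured non-coding RNA genes, against 0.0391% to 0.235% with DMSO. Such reads shift values that are scaled to all reads of a library. The authors' normalised counts summed to 2.17e+06 to 5.15e+06 per library, so they were not scaled to a common total. The part of structured non-coding RNA reads in the members' fold changes was not tested beyond fitting the values under other scalings. Between 9816 and 10407 genes had a read in replicate 1 of DMSO and in replicate 3 of each compound, against 13068 to 14616 in the other 6 libraries. Of the myeloid blast markers all 10 had reads with DMSO, at a sum of 3286 to 4664 rpm (reads scaled to a common library total). Their sum was 959 to 1604 with JPX-0700, where MPO was at 0, and 901 to 1976 with JPX-0750. MPO had 0, 38 and 23 reads in the deeper DMSO libraries. LYZ alone was at 1867 to 3051 rpm with DMSO, 346 to 526 with JPX-0700 and 219 to 848 with JPX-0750. Mean normalised counts of TYROBP, CD68 and ITGAM were higher with both compounds than with DMSO. Those of PTPRC, CD33, FLT3, MPO, CSF1R and LAPTM5 were, like that of LYZ, lower. Markers of T and NK, B, erythroid and megakaryocyte, and epithelial and fibroblast cells each summed to at most 40.2 rpm in any library, with GATA1, HBB, EPCAM and CDH1 among those at 0 in all 3 groups. In these lists COL1A1 was at 0 with DMSO and had 5, 3 and 2 reads in JPX-0700 libraries and 5, 1 and 65 in those of JPX-0750, and CD3D had 18 reads in JPX-0700 replicate 3 and 0 in the other libraries. The part of such reads in the results was not tested.

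In DMSO-treated cells CEBPA was the most abundant of the 10, at 927 ± 394 normalised counts (SD, n = 3). IRF8 (412 ± 173), RUNX1 (350 ± 14.7), GFI1 (298 ± 139), CEBPG (239 ± 30.2), CEBPD (179 ± 109), SPI1 (175 ± 46.4) and CEBPB (136 ± 91.2) followed. GATA2 (15.3 ± 9.05) and CEBPE (11.7 ± 13.3) were lowest. Each neighbouring pair in this order overlapped between libraries except CEBPB and GATA2, whose libraries ran from 50.1 to 232 and from 5.39 to 23.1. RUNX1 had the tightest spread of the 10, with a coefficient of variation of 4.19% over the DMSO libraries, and CEBPE the widest, at 114%. With either compound CEBPD stood the second in the order of means, behind CEBPA, whereas it stood the sixth with DMSO. CEBPE and GATA2 remained the lowest members in both treated groups. The plot of all members by library shows these levels on a log2 scale.

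**Figure D1:**
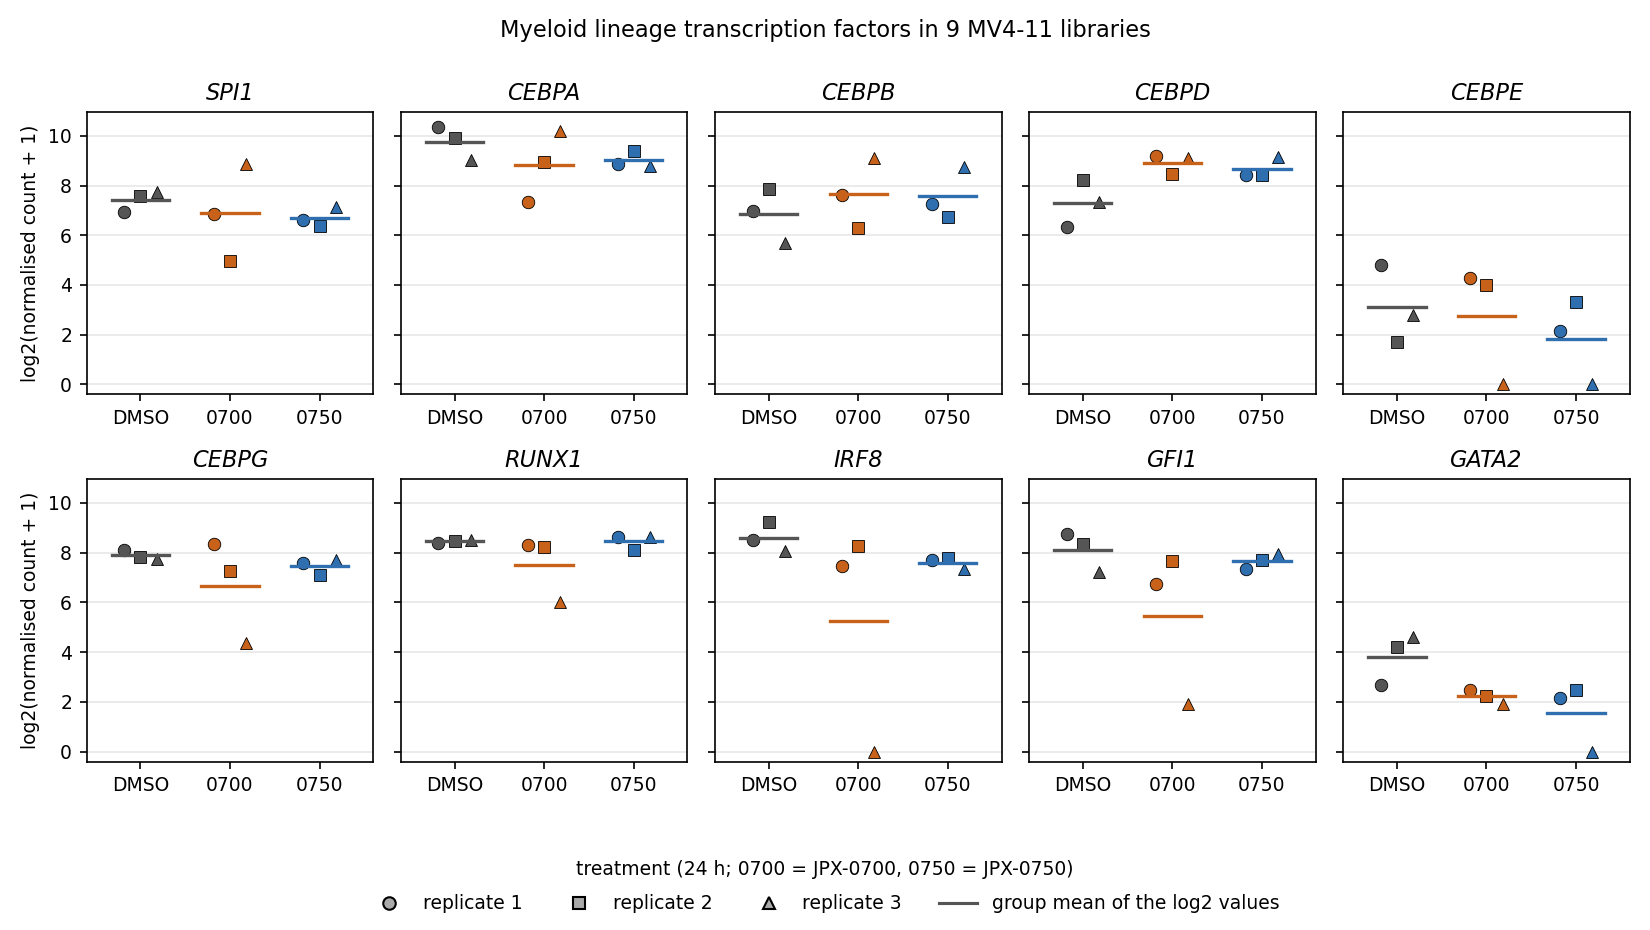
Each panel plots 1 gene; the vertical axis is log2(normalised count + 1), the horizontal axis the treatment, points are libraries with a shape per replicate number, and lines are group means of the log2 values. JPX-0700 replicate 3 (orange triangle) lies far below the other libraries for CEBPG, RUNX1, IRF8 and GFI1 and above them for SPI1 and CEBPB, and CEBPD lies higher in all 6 treated libraries than in the 3 DMSO libraries as the authors scaled the values, though not under total-sum or TMM scaling, nor with JPX-0750 under protein-coding scaling.

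No member passed the test in any of the 3 comparisons, by limma on log2(normalised count + 1) with Benjamini-Hochberg adjusted p under 0.05 over the 12301 genes with a mean of at least 5. JPX-0700 against DMSO had 0 of 10 called, where 5.77% of all genes tested were called, 5.28% higher and 0.496% lower. At an unadjusted p under 0.05 there were 3 members in that comparison (CEBPD, IRF8 and GFI1), where 19.6% of all genes had such a p. With voom, a count-based variant of limma, 1 member (IRF8) was called, where 7.89% of all genes were. JPX-0750 against DMSO also had 0 of 10 called, beside 3.98% of all genes (3.9% higher and 0.0732% lower), with 1 member (CEBPD) at an unadjusted p under 0.05 beside 14.2% of all genes, and 0 by voom beside 6.45%. The comparison of the 2 compounds with each other had 0 members called beside 0% of all genes, with 1 member (GFI1) at an unadjusted p under 0.05 beside 3.21% of genes, and 0 by voom. The comparisons with DMSO share the same 3 control libraries. The median log2 fold change of the 10 members was -0.93 with JPX-0700 and -0.58 with JPX-0750, where the median over all genes tested was 0.14 and 0.26. Estimates were below 0 for 8 members with JPX-0700 and for 7 with JPX-0750, and the share of all genes below 0 is not given here. With JPX-0700 the signs of SPI1, CEBPE and CEBPG turned when libraries were left out, as did that of CEBPE with JPX-0750.

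**Figure D2:**
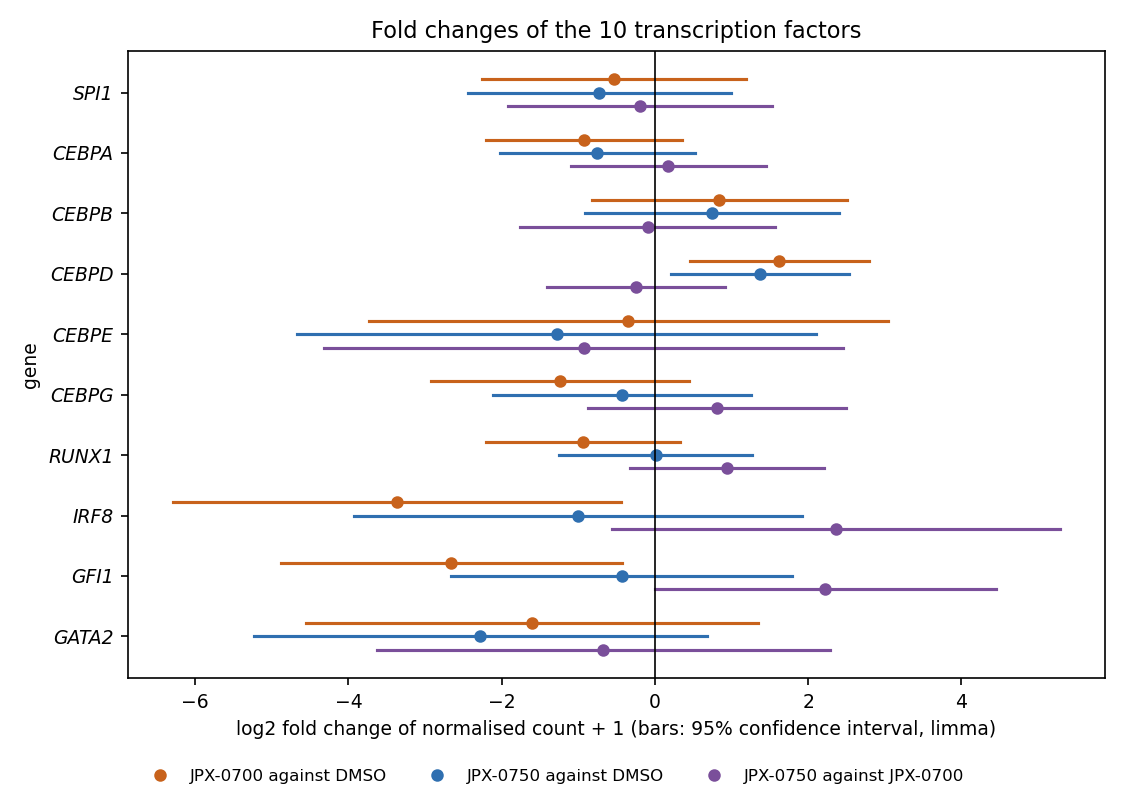
Log2 fold changes of the 10 genes (horizontal axis, of normalised count + 1) in the 3 comparisons, with dots for the estimate and bars for its 95% confidence interval from limma over 9 libraries. The CEBPD intervals for both compounds and the IRF8 and GFI1 intervals for JPX-0700 leave out 0 before adjustment for the number of genes, as does that of GFI1 between the compounds, whose lower end is 0.000199, and the widest bars belong to IRF8, CEBPE and GATA2.

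SPI1 encodes PU.1, an ETS factor that myeloid cells need to form, and lies at chr11:47354860-47378547 on the minus strand of GRCh38.p14, with 5 exons. Its normalised counts were 123, 190 and 212 with DMSO, 115, 29.8 and 464 for JPX-0700, and 95.9, 81.9 and 138 for JPX-0750 (replicates 1, 2 and 3 in each group). JPX-0700 libraries thus included both the lowest and the highest of the 9, from 8 and 167 reads, and JPX-0750 libraries overlapped the DMSO range only at 138. The log2 fold change was -0.53 ± 0.82 (SE) with JPX-0700 and -0.72 ± 0.82 with JPX-0750 (limma, adjusted p = 0.746 and 0.731). JPX-0700 replicate 2 alone set the sign of the first, which was 0.44 without it. With the library of fewest genes left out of each group, a choice made after the data were seen, SPI1 fell by 1.75 on the log2 scale with JPX-0700 (adjusted p = 0.0402, over alternatives 0.0402 to 0.869). That fit called 25.1% of all genes tested.

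CEBPA encodes C/EBPα, which drives granulocyte and monocyte commitment and restrains proliferation. It has 1 exon, at chr19:33299934-33302534 on the minus strand. DMSO libraries held 1307, 952 and 520 normalised counts, JPX-0700 libraries 161, 496 and 1175, and JPX-0750 libraries 462, 668 and 440. The lowest value, 161, rests on 35 reads, and the groups overlapped in both comparisons. The log2 fold change was -0.93 ± 0.61 with JPX-0700 and -0.75 ± 0.61 with JPX-0750 (limma, adjusted p = 0.410 and 0.610). Under total-sum scaling, which divides by all reads of a library, CEBPA lay wholly below DMSO with both compounds, at estimates of -1.66 and -1.29 (adjusted p = 0.0893 and 0.243; over alternatives 0.0749 to 0.878 and 0.243 to 0.903).

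CEBPG, whose short protein lacks an activation domain and pairs with other C/EBP and ATF proteins, lies 71175 bases from CEBPA, at chr19:33373709-33382686 on the plus strand, with 2 exons. Its values were 273, 226 and 216 with DMSO, 327, 153 and 19.5 for JPX-0700, and 192, 136 and 210 for JPX-0750. All 3 JPX-0750 libraries were below the lowest DMSO library, though only narrowly (210 against 216), and JPX-0700 replicate 3 had 7 reads. Log2 fold changes were -1.24 ± 0.80 and -0.43 ± 0.80 (limma, adjusted p = 0.404 and 0.853), and the former was 0.02 without the library of fewest genes of each group. The 250 bases before the RefSeq starts of these neighbours are printed to show their base composition and, in capitals, 2 matches to CCAAT (as ATTGG on the printed strand) in CEBPG, at -85 and -24. Each is read 5′ to 3′ along its gene, from RefSeq GRCh38.p14, CEBPA at chr19:33302535-33302784 (minus strand) and CEBPG at chr19:33373459-33373708 (plus strand).
CEBPA: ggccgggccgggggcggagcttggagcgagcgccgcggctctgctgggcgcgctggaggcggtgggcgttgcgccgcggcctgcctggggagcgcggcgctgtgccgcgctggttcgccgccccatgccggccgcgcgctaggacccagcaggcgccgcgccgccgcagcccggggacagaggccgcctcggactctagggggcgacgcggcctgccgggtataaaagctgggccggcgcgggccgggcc
CEBPG: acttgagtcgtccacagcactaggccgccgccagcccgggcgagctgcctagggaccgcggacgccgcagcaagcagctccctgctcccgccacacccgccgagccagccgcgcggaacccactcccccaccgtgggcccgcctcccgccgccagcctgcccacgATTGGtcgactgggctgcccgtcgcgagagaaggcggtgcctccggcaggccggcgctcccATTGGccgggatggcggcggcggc

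The set of RefSeq promoters used here held windows from 250 bases before to 50 after the start for 8 of the 10 members. It had no entry for CEBPD and SPI1. The 8 windows had a median of 72.2% G or C and 30 CpG, from 56.3% in IRF8 to 80.7% in CEBPA, where all 27305 gene promoters had a median of 58.3% and 14 CpG. CCAAT matched in 3 of 8 (CEBPG, CEBPB and RUNX1), on either strand, and in 35.7% of all promoters. The GAS element TTCNNNGAA matched in 1 of 8, CEBPE, and in 7.88% of all. RUNX sequence TGTGGT matched in 1 of 8, IRF8, and in 13.1% of all. No match was found in the 8 windows for the C/EBP sequence TTGCNNAA (10.6% of all promoters), the C/EBP-ATF composite TGATGCAA (0.923%), the CRE TGACGTCA (1.98%), the PU.1 sequence GAGGAAGT (2.54%), the GATA sequence AGATAA (10.5%) or the heat shock element HSE (0.487%), each searched on both strands. Letters of GAS and of the heat shock element can overlap, as can those of both C/EBP motifs. The RUNX1 and IRF8 windows lie before starts inside the annotated gene spans.

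CEBPB encodes C/EBPβ, a factor of emergency granulopoiesis and of macrophage activation, in 1 exon at chr20:50190583-50192690 on the plus strand. DMSO libraries had 126, 232 and 50.1 normalised counts, JPX-0700 libraries 198, 78.3 and 545, and JPX-0750 libraries 154, 105 and 433. The libraries of fewest genes in the treated groups, both replicate 3, gave its highest values, and all groups overlapped. Log2 fold changes were 0.84 ± 0.79 and 0.75 ± 0.79 (limma, adjusted p = 0.575 and 0.712). Without the library of fewest genes of each group they were 0.21 and 0.23 (adjusted p = 0.846 and 0.823; over alternatives 0.279 to 0.940 and 0.505 to 0.960).

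CEBPD encodes C/EBPδ, an acute-phase factor induced by cytokines through STAT3 in many cell types, in 1 exon. Its DMSO libraries held 79.0, 295 and 162 normalised counts, those of JPX-0700 576, 354 and 550, and those of JPX-0750 342, 346 and 563. The 6 treated libraries were all above the highest DMSO library. Wholly above DMSO were 1 of 10 members with each compound, where 16.5% (JPX-0700) and 19.7% (JPX-0750) of all genes tested were. The log2 fold change was 1.62 ± 0.55 with JPX-0700 and 1.37 ± 0.55 with JPX-0750, a difference that did not pass the test in either comparison (limma, adjusted p = 0.101 and 0.236). Under total-sum scaling the estimates were 0.90 and 0.84 and its groups overlapped in both comparisons, as they did under TMM, a trimmed-mean scaling, and for JPX-0750 under scaling to protein-coding reads. The estimate stayed above 0 in each of 20 alternatives, from 0.90 to 2.08 with JPX-0700 and from 0.65 to 1.83 with JPX-0750.

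CEBPE encodes C/EBPε, which completes granule formation in neutrophils, at chr14:23117306-23119255 on the minus strand, with 2 exons. It had 30, 6 and 11 reads in DMSO libraries, 4, 4 and 0 in JPX-0700 libraries and 1, 2 and 0 in JPX-0750 libraries. In normalised counts these were 26.9, 2.30 and 5.92, then 18.4, 14.9 and 0, then 3.42, 9.10 and 0, so the groups overlapped. The 3 reads with JPX-0750 against 47 with DMSO gave a ratio of 0.320 per scaled depth (exact 95% counting interval 0.0637 to 0.995, counting error only). Its log2 estimates of -0.35 ± 1.61 and -1.28 ± 1.61 (limma, adjusted p = 0.925 and 0.761) turned to 1.88 and 0.48 without the library of fewest genes of each group. Its upstream bases are printed since they hold the GAS match among the members, TTCCCAGAA, in capitals, starting at -242, from RefSeq GRCh38.p14 chr14:23119256-23119505 (minus strand).
CEBPE: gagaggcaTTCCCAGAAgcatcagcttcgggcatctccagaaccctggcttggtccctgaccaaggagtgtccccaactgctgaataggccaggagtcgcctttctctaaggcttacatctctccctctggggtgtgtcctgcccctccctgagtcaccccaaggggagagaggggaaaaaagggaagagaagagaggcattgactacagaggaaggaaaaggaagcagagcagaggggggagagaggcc

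Within a library the make-up of C/EBP reads does not depend on scaling between libraries. CEBPA took 72.2%, 55.8% and 54.5% of the reads of the 5 C/EBP genes with DMSO, 12.6%, 45.2% and 51.3% for JPX-0700 and 40.1%, 52.9% and 26.7% for JPX-0750. The 6 treated libraries were all below the lowest DMSO library. The DMSO mean was 60.8% ± 9.84 (SD, n = 3), that of JPX-0700 36.4% ± 20.8 and that of JPX-0750 39.9% ± 13.1, differences of -24.4 and -20.9 percentage points. The exact two-sided permutation test gave p = 0.1 for each, the smallest that 3 against 3 libraries allow, and 0.3 after adjustment over the 6 share tests, so neither could reach the threshold. As a share of all 10 members CEBPA differed by -7.88 and -8.83 points (exact permutation p = 0.4 and 0.3).

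CEBPB took 8.58% ± 4.39 in the DMSO libraries, 15.5% ± 8.32 with JPX-0700 and 15.98% ± 9.30 with JPX-0750, with overlapping libraries (exact permutation p = 0.2 and 0.3, adjusted 0.4 and 0.45). CEBPD made up 4.36%, 17.3% and 16.9% of C/EBP reads with DMSO, 45.0%, 32.3% and 24.0% for JPX-0700 and 29.7%, 27.3% and 34.2% for JPX-0750. There were 0.0604, 0.310 and 0.311 CEBPD reads for each CEBPA read with DMSO. The same ratio was 3.57, 0.714 and 0.468 for JPX-0700, and 0.741, 0.517 and 1.28 for JPX-0750, again all above the DMSO libraries. These CEBPD shares and ratios are given without a test, since CEBPD was already known to stand high. A ratio within a library shows unequal change of its terms and not which of them changed.

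**Figure D3:**
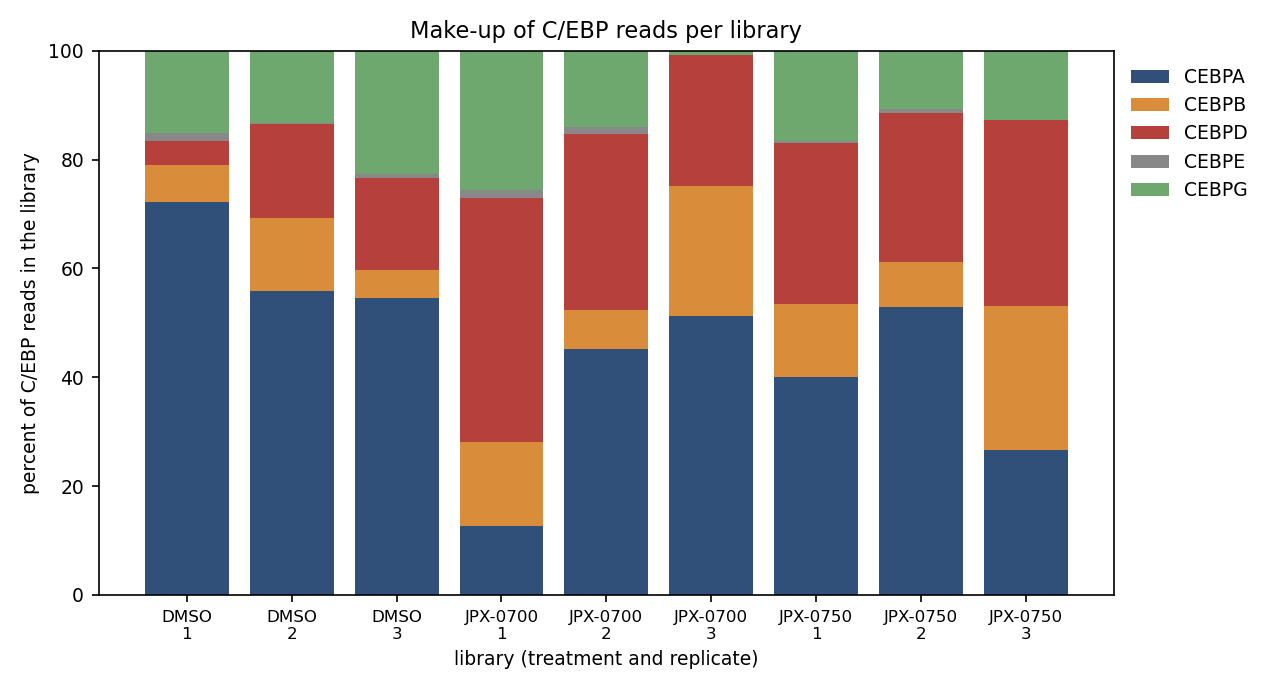
Stacked bars give the percent of C/EBP reads (vertical axis) that each of the 5 genes took in each of the 9 libraries (horizontal axis). CEBPA takes 54.5% to 72.2% of the bar in DMSO libraries and 12.6% to 52.9% in treated ones, and CEBPD 4.36% to 17.3% and 24.0% to 45.0%.

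RUNX1, the DNA-binding subunit of core binding factor, spans chr21:34787801-35049302 on the minus strand, with 8 exons in its main transcript. DMSO libraries gave 334, 355 and 362 normalised counts, JPX-0700 libraries 313, 302 and 63.9, and JPX-0750 libraries 401, 273 and 400. All JPX-0700 libraries lay below DMSO, of which replicates 1 and 2 by a small margin and replicate 3, at 23 reads, by a large one. The log2 fold change was -0.94 ± 0.60 with JPX-0700 (limma, adjusted p = 0.401) and -0.19 without JPX-0700 replicate 3. With JPX-0750 it was 0.01 ± 0.60, with a 95% interval of -1.26 to 1.27, and it was -0.53, -0.25 and -0.21 under total-sum, TMM and protein-coding scaling.

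IRF8, an interferon regulatory factor that directs progenitors to monocytes and dendritic cells, lies at chr16:85899162-85922609 on the plus strand, with 9 exons. It was at 364, 604 and 267 normalised counts with DMSO, at 175, 306 and 0 for JPX-0700, and at 205, 218 and 162 for JPX-0750. The JPX-0750 libraries were all below the DMSO libraries, while JPX-0700 replicate 2 lay within the DMSO range. JPX-0700 replicate 3 had 0 of 1852375 reads on IRF8, which allows up to 8.34 normalised counts (a floor of 3 reads). The log2 fold change was -3.37 ± 1.39 with JPX-0700 (limma, adjusted p = 0.186) and -1.002 ± 1.39 with JPX-0750 (adjusted p = 0.789). It was -0.75 (adjusted p = 0.311) without JPX-0700 replicate 3, -4.88 (adjusted p = 0.0339) without JPX-0700 replicate 2, and -3.92 (adjusted p = 0.0437) by voom on all libraries, so that the call rested on which libraries and which test were used (adjusted p over alternatives 0.0339 to 0.444). Without JPX-0700 replicate 2 the test called 6.43% of all genes.

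GFI1 encodes a zinc finger repressor that holds back monocyte genes in granulocyte precursors, at chr1:92473043-92486925 on the minus strand, with 7 exons. Its values were 425, 321 and 149 with DMSO, 106, 201 and 2.78 for JPX-0700, and 161, 209 and 245 for JPX-0750. The groups overlapped, and the JPX-0700 replicate 3 value is 1 read. Log2 fold changes were -2.66 ± 1.06 and -0.43 ± 1.06 (limma, adjusted p = 0.167 and 0.891). Without JPX-0700 replicate 3 the former was -0.90 (adjusted p = 0.283), and without JPX-0700 replicate 2 it was -3.77 (adjusted p = 0.0354; over alternatives 0.0354 to 0.458).

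GATA2 encodes a zinc finger factor of stem and progenitor cells and of mast cells, at chr3:128479422-128493201 on the minus strand, with 6 exons. It had 6, 45 and 43 reads with DMSO, 1 in each JPX-0700 library, and 1, 1 and 0 with JPX-0750. In normalised counts these were 5.39, 17.3 and 23.1, then 4.61, 3.73 and 2.78, then 3.42, 4.55 and 0, so the listed values of all treated libraries lay below those of DMSO. GATA2 passed the mean of 5 through its DMSO libraries, and each treated value is 1 read or none. A floor of 3 reads is 13.8 normalised counts in JPX-0700 replicate 1, above the 5.39 of DMSO replicate 1, so the order of these 2 libraries is within counting error. Per scaled depth, 3 reads against 94 gave a ratio of 0.211 (exact 95% counting interval 0.0427 to 0.635) for JPX-0700, and 2 against 94 gave 0.107 (0.0127 to 0.396) for JPX-0750, for counting error only. Its log2 estimates of -1.60 ± 1.404 and -2.28 ± 1.404 did not pass the test (limma, adjusted p = 0.542 and 0.484).

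Wholly below DMSO were 2 of 10 members with JPX-0700 (RUNX1 and GATA2), where 10.3% of all genes tested were, and 3 of 10 with JPX-0750 (CEBPG, IRF8 and GATA2), where 9.18% were. This count followed the scaling: under total-sum scaling it was 5 with JPX-0700 and 6 with JPX-0750, beside 21% and 19.3% of all genes. It left 0 members wholly above in either comparison, beside 9.93% and 12.8% of all genes, and the median fold change of all genes moved from 0.14 to -0.52 and from 0.26 to -0.25. The place of GATA2 in these counts rests on single reads. Lower RNA of a gene in fewer cells and less of it per cell cannot be told apart in these bulk samples. Antisense genes overlap CEBPA, CEBPB, RUNX1 and GATA2, and the counted strand was not given in the sources used here. Where they overlap, reads of one could have been counted to the other. CEBPB-AS1 had 62 reads over the 9 libraries (a mean of 8.08 normalised counts) and GATA2-AS1 had 70 (a mean of 13.5, where GATA2 itself had 7.21 over the same libraries).

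JPX-0700 replicate 3 stood apart in 6 members. It was the highest of the 9 libraries for SPI1 and CEBPB, with 167 and 196 reads, and the lowest for CEBPG, RUNX1, IRF8 and GFI1, with 7, 23, 0 and 1 reads. In that library 129 of 4755 genes (2.71%) with a mean of at least 100 normalised counts in the other 8 libraries were at 0 reads, as were 193 of 4993 (3.87%) in DMSO replicate 1 and at most 72 in any of the others. The 3′ untranslated regions of SPI1, CEBPB and CEBPD span 370, 621 and 405 bases in the main annotated transcript, and those of CEBPG, RUNX1, IRF8 and GFI1 2997, 4337, 1330 and 1270, while those of CEBPA and GATA2 span 1407 and 1595. That of CEBPE, at 0 reads in this library, is the shortest of the 10, at 186 bases. CEBPA, with 1407 bases, was at 1175 normalised counts there, above every other library but DMSO replicate 1 (1307). CEBPD, at 550 there, was below JPX-0700 replicate 1 (576) and JPX-0750 replicate 3 (563). The fold changes of IRF8, GFI1 and RUNX1 without this library are given above, and the part of transcript form in them was not tested. Over the 9 libraries IRF8 and GFI1 had a Pearson correlation of 0.97 on the log2 scale, and the 6 pairs of CEBPG, RUNX1, IRF8 and GFI1 had 0.90 to 0.97. Without JPX-0700 replicate 3, left out after the data were seen, IRF8 and GFI1 had 0.63 over 8 libraries and the other 5 pairs -0.08 to 0.30. CEBPA and GFI1 went from -0.15 to 0.90. These correlations describe 9 libraries that share treatments and depth, and carry no p.

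The genes whose pattern over the 9 libraries was most like each member were taken from 7241 genes with a mean of at least 50 normalised counts. CEBPD was most like HSPA8 (r = 0.98), a constitutive heat shock chaperone, and IL1B (0.96), an inflammatory cytokine. CEBPB was most like the ribosomal protein genes RPS15A (0.96) and RPL13 (0.96). IRF8 was most like SPTLC1 (0.99) and ACO1 (0.99), GFI1 like MKL1 (0.99) and ALKBH3 (0.99), RUNX1 like ZNF24 (0.99) and WDFY1 (0.99), and CEBPG like TIPRL (0.98) and MRPL19 (0.98). CEBPA was most like EIF3K (0.96) and INPP5D (0.95), SPI1 like RHOG (0.94), GATA2 like SLC25A39 (0.96) and REPIN1 (0.94), and CEBPE like CDC42BPB (0.92) and JOSD1 (0.92). IRF8, GFI1, RUNX1 and CEBPG all had their lowest value in JPX-0700 replicate 3.

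The 2 compounds were compared for all 10 members, with p-values adjusted over all genes. CEBPD differed between JPX-0750 and JPX-0700 by -0.25 on the log2 scale (95% interval -1.41 to 0.91), CEBPA by 0.18 (-1.10 to 1.45), CEBPB by -0.09 (-1.75 to 1.57) and SPI1 by -0.19 (-1.91 to 1.53). The intervals therefore include differences of 2-fold in either direction for CEBPA, CEBPB and SPI1. RUNX1 differed by 0.94 (-0.32 to 2.21), CEBPG by 0.81 (-0.87 to 2.49), CEBPE by -0.93 (-4.32 to 2.46) and GATA2 by -0.68 (-3.63 to 2.28). IRF8 and GFI1 had the largest estimates among the members, 2.36 (-0.56 to 5.29) and 2.23 (0.00 to 4.45), at adjusted p = 0.848 each (limma). Without JPX-0700 replicate 3 they were -0.26 and 0.46. No member had libraries of the 2 compounds that did not overlap, where 8.35% of all genes tested had.

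**Figure D4:**
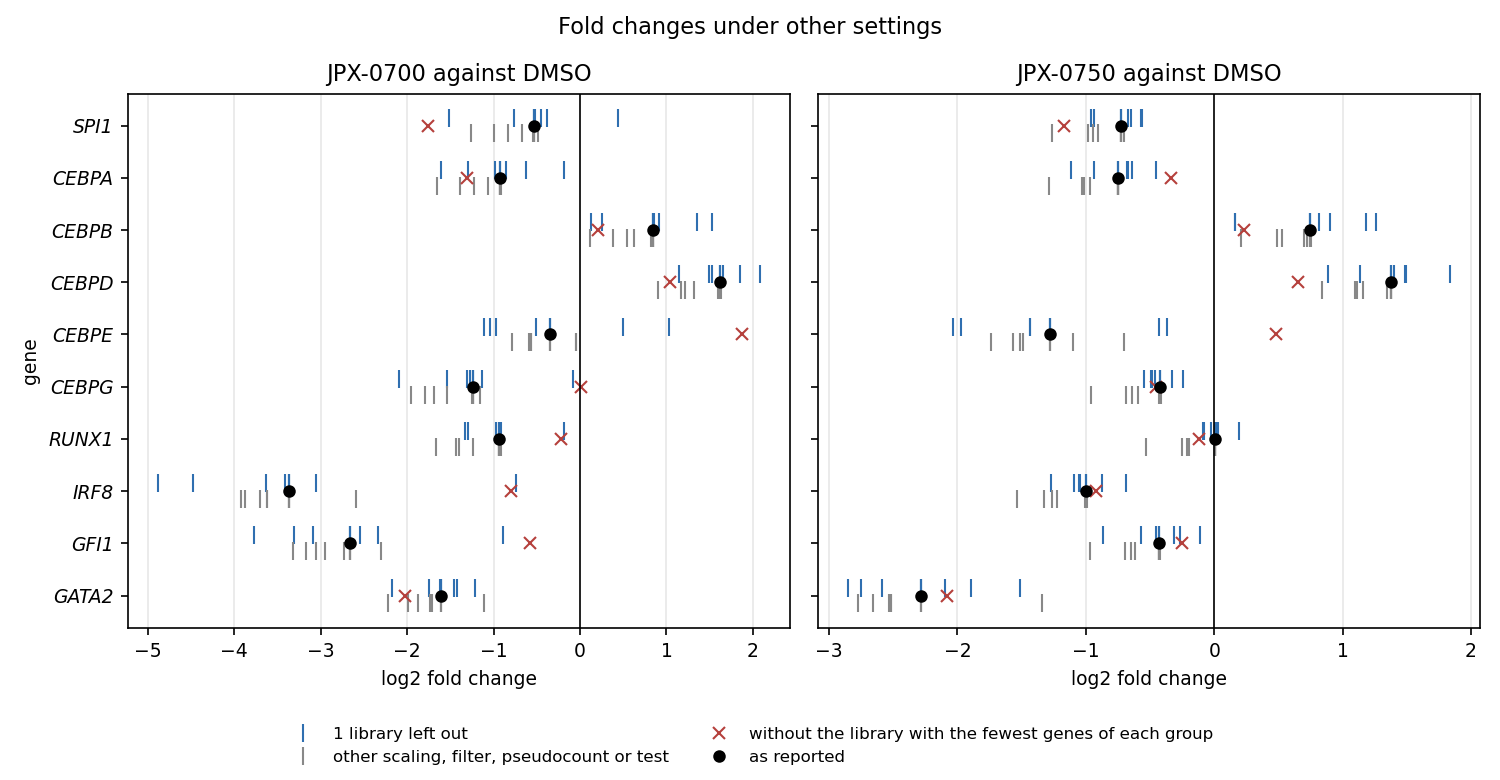
Log2 fold changes against DMSO of the 10 genes for JPX-0700 (left) and JPX-0750 (right), as reported (black dots), with 1 library left out (blue), under another scaling, filter, pseudocount or test (grey) and without the library of fewest genes of each group (red crosses). For JPX-0700 the IRF8 estimates run from -4.88 to -0.75 and those of GFI1 from -3.77 to -0.58, while those of CEBPD stay between 0.90 and 2.08.

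Other genes of the same families and pathways were counted from lists chosen by function. Of all genes tested 5.28% rose and 0.496% fell with JPX-0700, and 3.9% rose and 0.0732% fell with JPX-0750. Of 11 bZIP relatives and partners of the C/EBPs tested, 1 rose with each compound, DDIT3. It encodes CHOP, a stress-induced C/EBP relative that pairs with C/EBPs and blunts their DNA binding, and it went from 0, 10.4 and 16.7 normalised counts with DMSO to 479, 611 and 411 for JPX-0700, and to 561, 623 and 297 for JPX-0750. It rose by 6.40 ± 0.89 and 6.33 ± 0.89 on the log2 scale (limma, adjusted p = 0.000123 and 0.000146), and none of the 20 alternatives lost either call. Of 8 regulators of C/EBP proteins, 2 rose with JPX-0700 and 1 with JPX-0750. FBXW7, a ubiquitin ligase subunit that marks C/EBPα and C/EBPδ for degradation, rose by 1.95 ± 0.47 and 1.84 ± 0.47 on the log2 scale (limma, adjusted p = 0.0171 and 0.0323). TRIB3, a Tribbles pseudokinase, rose with JPX-0700 by 4.18 ± 1.17 (adjusted p = 0.0423), from 0.898, 24.2 and 8.08 to 92.2, 63.4 and 425. The FBXW7 call was lost in 7 and 9 of 20 alternatives for the 2 compounds (adjusted p from 0.00149 to 0.154 and from 0.00321 to 0.210) and that of TRIB3 in 12 of 20 (0.0205 to 0.178). For FBXW7 these included leaving out DMSO replicate 1 or 2 or replicate 1 or 2 of the compound for either comparison, and DMSO replicate 3 for JPX-0750. For TRIB3 they included the omission of a library (the first or the third of DMSO or of JPX-0700, or the first or second of JPX-0750). Its estimate dropped to 3.18 when the first DMSO library was omitted and to 3.36 when the third of JPX-0700 was.

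Of 15 other ETS factors tested, 1 rose with JPX-0700, ELF2, by 2.29 ± 0.61 (limma, adjusted p = 0.0311, lost in 9 of 20 alternatives, 0.0109 to 0.169), among them the omission of the first or second DMSO library, or of the first or the third of JPX-0700. In that comparison 5.28% of all genes rose and 19.6% had an unadjusted p under 0.05. Of the 15 ETS factors 4 had such a p, and the median of the list was -1.10. The other 3, named after their values were seen, were ETS2 (-2.21 ± 0.64, adjusted p = 0.0503), ELF4 (-2.52 ± 0.88, adjusted p = 0.112) and ELK1 (-2.76 ± 1.14, adjusted p = 0.185). They were wholly below DMSO as the authors scaled the values, as was ETV5, where 10.3% of all genes tested were. These 3 were picked for a small p in the same data, so their separation adds no support. With JPX-0750 0 of 15 were called by limma, with 3 at an unadjusted p under 0.05, ETV3 having the smallest (4.40 ± 1.61, adjusted p = 0.172, called in 4 of 19 alternatives, 0.00352 to 0.517). ETV3 passed the mean of 5 only through its treated libraries, with group means of 2.41 (DMSO), 26.9 (JPX-0700) and 49.9 (JPX-0750). None of 7 other IRF factors passed the test with either compound, with 1 and 0 at an unadjusted p under 0.05. IRF5 had the smallest p with JPX-0700 (-2.29 ± 1.04, adjusted p = 0.234, and -1.03 without JPX-0700 replicate 3) and IRF9 with JPX-0750 (2.87 ± 1.52, adjusted p = 0.414). Of 5 RUNX relatives and partners 0 passed, with 3 and 0 at an unadjusted p under 0.05, led by CBFA2T2 with JPX-0700 (3.31 ± 1.31, adjusted p = 0.164, and 1.69, adjusted p = 0.541, without DMSO replicate 1) and RUNX3 with JPX-0750 (0.98 ± 0.47, adjusted p = 0.367). Of 11 relatives and partners of GFI1 and GATA2 0 passed, with 3 and 0 at an unadjusted p under 0.05. Over all genes 19.6% had such a p with JPX-0700 and 14.2% with JPX-0750, beside the ETS, IRF and RUNX lists as well. GATA3, a T cell factor, had 3, 5 and 26 reads in the JPX-0700 libraries against 0, 2 and 0 with DMSO. GATA3 passed the mean of 5 through its JPX-0700 libraries, where it was high (group mean 34.9, against 0.256 with DMSO and 3.98 with JPX-0750). The ratio per scaled depth was 112 (exact 95% counting interval 28.8 to 964, counting error only), at a limma adjusted p = 0.0792. It was 46.0 (9.18 to 444) without JPX-0700 replicate 3, the library of its 26 reads. That library also held 18, 6 and 4 reads of the T cell markers CD3D, CD2 and CD3G, against 0, 2 and 1 over all DMSO libraries. Other T and NK markers did not go that way. IL7R and NKG7 had 1 read each there, against 257 and 220 over the DMSO libraries, and CD3E, CD5, GNLY and KLRD1 had 0. The whole list summed to 16.2 to 20.2 rpm with JPX-0700 and to 35.0 to 39.6 with DMSO. The part of such reads in the GATA3 value was not tested. HDAC2 had the smallest p with JPX-0750 (-0.72 ± 0.49, adjusted p = 0.544).

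Of 18 other factors of myeloid differentiation counted, 1 rose with JPX-0700 and 2 with JPX-0750, beside 5.28% and 3.9% of all genes. EGR1, an immediate early factor that favours macrophages, rose with both, by 2.30 ± 0.49 and 2.70 ± 0.49 on the log2 scale (limma, adjusted p = 0.00760 and 0.00207). Its call with JPX-0700 was lost under total-sum and protein-coding scaling (adjusted p = 0.0818 and 0.0521, over alternatives 0.000955 to 0.0818). KLF2 rose with JPX-0750 by 5.22 ± 1.43 (adjusted p = 0.0473), a call lost in 14 of 19 alternatives (0.00186 to 0.186), among them leaving out any 1 library other than JPX-0700 replicate 3. KLF2 passed the mean of 5 only through its treated libraries, with group means of 1.71 (DMSO), 22.3 (JPX-0700) and 83.6 (JPX-0750). Its DMSO libraries had 0, 12 and 1 reads and those of JPX-0750 16, 12 and 85. The medians of the 8 lists ran from -1.10 (other ETS factors) to 1.33 (bZIP relatives) with JPX-0700 and from -0.25 (RUNX relatives) to 1.47 (other myeloid factors) with JPX-0750, beside 0.14 and 0.26 over all genes.

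Of 18 myeloid target genes of PU.1 and C/EBP factors tested, 0 changed with JPX-0700, beside 5.77% of all genes. With JPX-0750 1 fell, beside 0.0732% of all genes. That gene was LYZ, the lysozyme of granules and of monocytes, at 4575, 7377 and 4055 normalised counts in DMSO libraries and at 801, 1128 and 2742 with JPX-0750. It fell by 1.93 on the log2 scale (SE 0.49, limma, adjusted p = 0.0292), lost in 4 of 20 alternatives, all of which left out a library: DMSO replicate 1 or 2 or JPX-0750 replicate 1 or 2 (adjusted p = 0.0854, 0.157, 0.214 and 0.139, over alternatives 0.00153 to 0.214). With JPX-0700 its libraries, at 1793, 1152 and 2659, were also all below DMSO, and the log2 fold change was -1.55 ± 0.49 (limma, adjusted p = 0.0737), a value that passed the test in 7 of 20 alternatives (0.00634 to 0.297), total-sum, TMM and protein-coding scaling among them. The median log2 fold change of the 18 genes was -0.80 with JPX-0700 and -0.02 with JPX-0750.

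**Figure D5:**
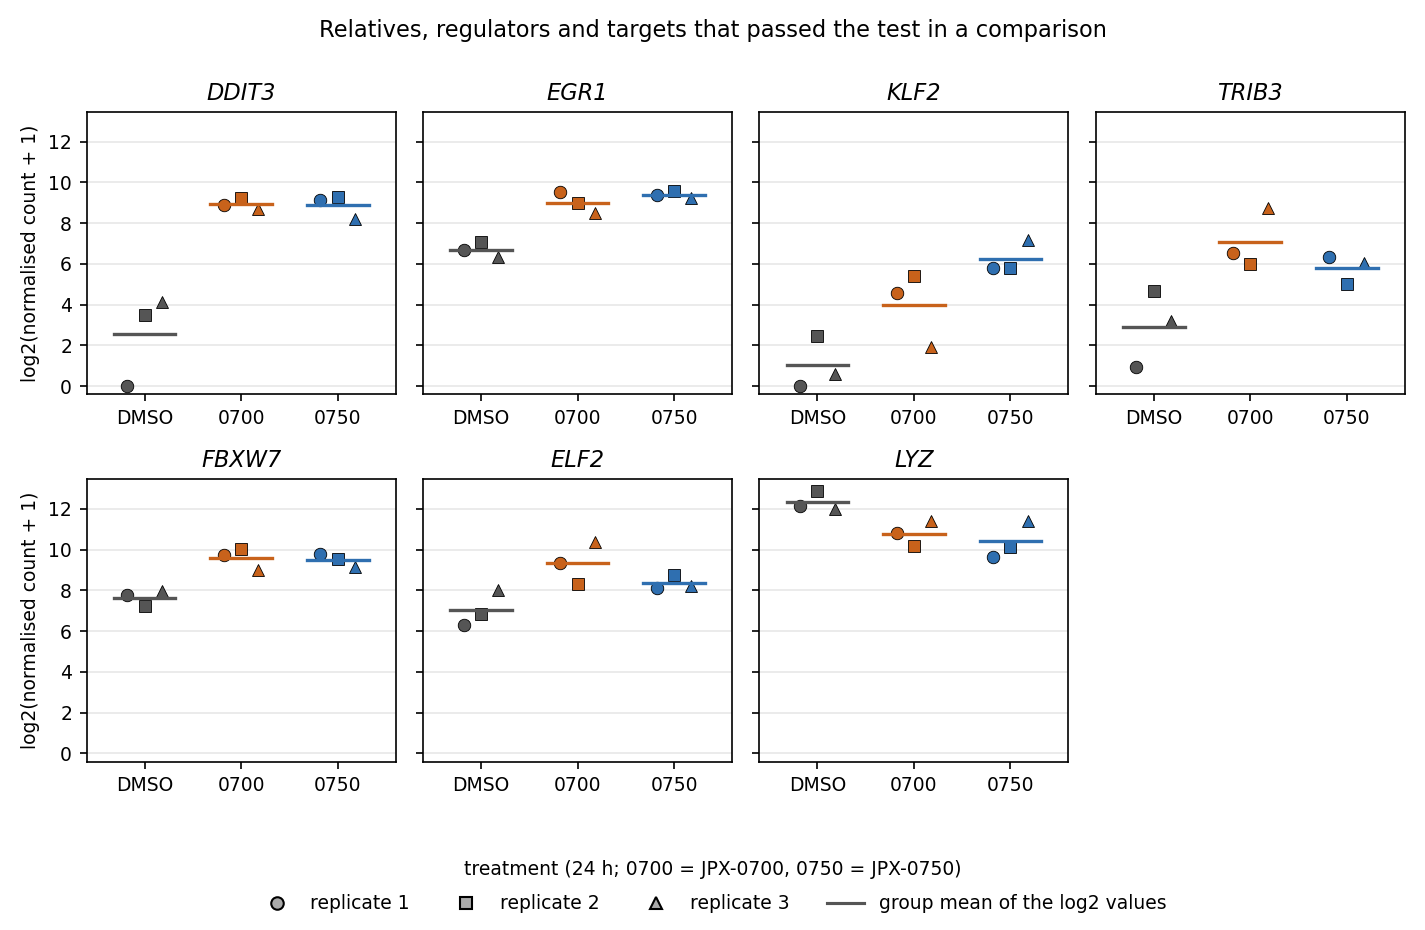
The 7 genes described from these lists that passed the test in a comparison, on the scale log2(normalised count + 1) by treatment, with points for libraries (shape by replicate number) and lines for group means. DDIT3 lies far above the DMSO libraries in all 6 treated libraries, whereas LYZ is lower in treated libraries.

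Between the compounds no gene of these lists passed the test by limma, beside 0% of all genes. The smallest p in each list belonged to NFIL3 (-2.46 ± 0.996 for JPX-0750 against JPX-0700), the ubiquitin ligase gene RFWD2 (also called COP1; 1.63 ± 0.90), ETV6 (1.33 ± 0.72), IRF5 (2.12 ± 1.04), RUNX2 (2.42 ± 1.30), GATA3 (-3.16 ± 1.45), MYC (1.58 ± 0.90) and CTSG (-1.16 ± 0.57), at adjusted p = 0.848 each (limma). NFIL3, GATA3 and CTSG were highest, and RFWD2, ETV6, IRF5, RUNX2 and MYC lowest, in JPX-0700 replicate 3.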

How the data were processed

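RNA of 9 MV4-11 libraries was counted per gene. The authors deposited 1 table of normalised counts (written with a decimal comma), made with DESeq2 (no version), featureCounts 2.0.3, STAR 2.4.2a, SAMtools 1.4, FastQC 0.11.9 and build GRCh38, per the submitters' processing notes. Counted strand, annotation and multimapping: not given in the sources used here. All values of a library were whole multiples of the smallest (100%, tolerance 1e-06), so reads were recovered by division.

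Genes with a mean of at least 5 (12301) were tested with limma 3.58.1 in R 4.3.3 on log2(normalised count + 1), 1 mean per group over 9 libraries, 6 residual degrees of freedom, two-sided, Benjamini-Hochberg adjusted, threshold 0.05, and "rose" and "fell" refer to it. Adding 1 shrinks the folds of low genes. Shares were compared by exact permutation tests. Other scalings, filters, pseudocounts, voom and left-out libraries were tried, with TMM factors computed from the recovered reads. The test was also run on simulated data. Deviations from group means correlated at 0.129, 0.171 and 0.190 between same-numbered libraries of the 2 compounds. Differently numbered ones reached 0.153 (JPX-0700 replicate 2 with JPX-0750 replicate 1) and 0.0657 (1 with 2), and lay at -0.198 to -0.119 where 1 of the pair was a replicate 3. Whether the numbers pair these libraries is not settled by such values, and the labels do not say. The reported tests used no pairing, and a block by replicate number was fitted only as an alternative. Same-numbered libraries of DMSO and a compound correlated at -0.143 to -0.0436, and differently numbered ones at up to 0.188. These values gave no sign of pairing by number there, but cannot exclude it.

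The members were proposed by name, and the lists chosen, with earlier results of these data known. Named genes were all 10 members, in each list up to 4 genes past the test by fold, or else the smallest p, and the 2 genes most like each member. Of the genes these rules name, 2 are not reported here, and 1 of them is left out of the counts of its list. Intervals and floors cover counting error only, since no molecular identifiers are named. The RefSeq tables of GRCh38.p14 gave coordinates and promoters, and the exons, untranslated regions and overlaps come from GENCODE 29.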

Additional observations from a re-analysis of the deposited data

How the results depend on the processing

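The 0 members called with JPX-0700 became 1 with voom (IRF8), 1 without the library of fewest genes of each group (SPI1, an alternative chosen after seeing the data, which called 25.1% of all genes) and 0 to 2 with 1 library left out (IRF8 and GFI1 without JPX-0700 replicate 2). With JPX-0750, and between the compounds, 0 were called in every alternative run. The edgeR and DESeq2 tests planned on recovered reads were not run. Counts of all genes split 649 higher and 61 lower for JPX-0700 and 480 and 9 for JPX-0750, against 378 and 279, and 304 and 57, under total-sum scaling. Without the library of fewest genes of each group they were 2478 and 666, and 2507 and 578. For JPX-0700 they were 414 and 8, and 384 and 5, without DMSO replicate 1 or 2. For JPX-0750 they were 308 and 0 without DMSO replicate 2, 253 and 1, and 267 and 3, without JPX-0750 replicate 1 or 2, 1028 and 115 without JPX-0700 replicate 3, 734 and 59 by voom, and 765 and 72 with the 2 groups compared alone.

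Several estimates changed sign. With the library of fewest genes of each group left out, they were 1.88 (CEBPE) and 0.0155 (CEBPG) for JPX-0700, 0.48 (CEBPE) and -0.12 (RUNX1) for JPX-0750, and 0.58 (SPI1), 0.0263 (CEBPB), -0.47 (CEBPG), -0.13 (IRF8), -0.0682 (RFWD2) and -0.0331 (RUNX2) between the compounds. RUNX1 with JPX-0750 was -0.53, -0.25, -0.21 and -0.20 under total-sum, TMM and protein-coding scaling and voom. Between the compounds SPI1 was 0.0497 under protein-coding scaling, and CEBPB was 0.10, 0.15 and 0.0749 under total-sum and protein-coding scaling and voom. Shares of all 10 members differed between the compounds by -0.95 (CEBPA) and -1.27 points (CEBPB).

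With 1 library left out, estimates that changed sign ranged from -1.52 to 0.44 (SPI1) and -1.11 to 1.03 (CEBPE) for JPX-0700, and from -0.0844 to 0.19 (RUNX1) for JPX-0750. Between the compounds they ranged from -1.16 to 0.79 (SPI1), -0.57 to 0.86 (CEBPA), -0.78 to 0.61 (CEBPB), -0.34 to 1.66 (CEBPG), -0.26 to 3.87 (IRF8) and -1.14 to 0.0930 (GATA2), and shares from -8.40 to 11.0 points (CEBPA) and -4.65 to 4.68 (CEBPB). Correlations of RUNX1 with IRF8 and of CEBPG with GFI1 were -0.0772 and -0.0655 without JPX-0700 replicate 3. The cause of these changes was not tested.

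With the replicate number as a block, 626 genes were higher and 68 lower for JPX-0700, and for JPX-0750 463 and 10, 0 members were called, and KLF2 with JPX-0750 had an adjusted p of 0.0547 in place of 0.0473. Between the compounds, with only their 6 libraries fitted and the block (chosen after seeing the data), 0 members were called as well, and beside KLF2 the block moved 1 other call of the results given: 2 bZIP relatives (DDIT3 and ATF3, the latter named after its value was seen) in place of 1 were called with JPX-0750.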
